A study of Mus musculus with 52 samples.

Results

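BMP and TGF-beta response genes were followed in RNA sequencing of cloned mouse kidney cells. The set comprised 10 of the 24421 gene symbols in the count tables, chosen by symbol: the inhibitors of DNA binding Id1, Id2, Id3 and Id4, the inhibitory Smads Smad6 and Smad7, the ligand genes Bmp4, Tgfb1 and Tgfb2, and Skil. All 10 were found in each count table and all 10 passed the expression filter. The cells were Cilia-APEX-IMCD3, an immortalised mouse inner medullary collecting duct line, and the study asked how missense changes in Wdr34 and Wdr60, which encode intermediate chains of the ciliary motor dynein-2, alter the transcriptome. Mutant clones were made by transfection of a cytosine base editor with a guide plasmid and were sorted as single cells. Control clones, according to the study's methods, had received the base editor and a guide plasmid without a target sequence. The labels mark the non-ciliated clones with BE, except for the control clone AB.

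Ciliated cells comprised 4 control clones (D8, H12, A4 and G7) and 3 homozygous mutant clones, namely Wdr60 p.Ala911Val and the Wdr34 clones labelled 1 and 3. Alleles are those stated by the study, whose 3 ciliated mutants include 2 Wdr34 alleles, p.Arg183Trp and a glycine to serine change. The clone with the latter also has an unintended heterozygous missense change in Wdr34. The labels do not say which of these 2 Wdr34 clones carries which allele. Non-ciliated cells comprised 4 control clones (AB, Co1, Co2 and Co3) and 2 homozygous mutants, with p.Arg183Trp in Wdr34 and p.Ala911Val in Wdr60. Each allele was thus 1 clone in a state, so that allele and clone cannot be told apart. Ciliated Wdr34, where taken as 1 genotype below, pools 2 alleles. The labels do not say whether any control clone of one state is also a control clone of the other. The study's methods count no more control clones in all than the labels give for a single state, so that clones may be shared between states, as may the Wdr60 mutant. The 13 clones counted here are thus clone samples by label, each in 1 state, and were treated as independent. Ciliated cells were serum-starved according to the study's methods, whereas the labels give the same growth medium for all libraries, and the non-ciliated cells were sequenced earlier, so that ciliation, serum and time of sequencing cannot be told apart.

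BMP and TGF-beta ligands bind pairs of receptor kinases, which phosphorylate receptor Smads. Phosphorylated Smads enter the nucleus with Smad4 and switch on target genes, among which Id1, Id2, Id3, Smad6, Smad7 and Skil are well known. ID proteins bind helix-loop-helix transcription factors and keep them off DNA, whereas Smad6, Smad7 and SKIL feed back on the pathway. In kidney epithelium BMP signals take part in branching and differentiation, and TGF-beta is known for its part in fibrosis and loss of epithelial features.

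Each clone was sequenced in 4 technical replicate libraries, 52 in all, with totals of 14816218 to 28084979 counts (median 17414011.5). A limit of 3 counts in a library equals 0.105 to 0.203 CPM (counts-per-million, scaled by the TMM factors of edgeR). Values below are clone means over 4 libraries, and the SD of a group is taken over its clone means. The mutated genes were expressed in every clone, Wdr34 at 21.6 to 49.7 CPM and Wdr60 at 20.2 to 30.6 CPM, and missense alleles are not checked by such levels. Of 8 collecting duct markers, the transcription factor genes Pax2, Pax8 and Hoxb7 were present in all clones, Hoxb7 at 33.4 to 84.9 CPM. The others were low or absent. Gata3, Aqp3, Avpr2 and Scnn1a were at most at 2.86, 1.06, 0.164 and 5.50 CPM in any clone. The water channel gene Aqp2 was at 0 counts in each clone other than non-ciliated Wdr60, which had 1. Summed markers of fibroblasts (7 genes, 0.395 to 7.25 CPM), leukocytes (3 genes, 0.856 to 5.40 CPM) and endothelium (4 genes, at most 0.185 CPM) were low in all 13 clones.

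A pair of control clones stood apart in epithelial markers. Cdh1, which encodes the adhesion protein E-cadherin, was at 14.7 CPM in G7 and 4.27 CPM in Co2 but at 241 to 649 CPM in the other 11 clones. For 5 of 5 epithelial markers (Cdh1, Epcam, Krt8, Krt18 and Krt7), G7 was lowest of the ciliated clones and Co2 lowest of the non-ciliated clones. Ciliated Wdr34 clone 3 was second lowest of the ciliated clones for 5 of 5. For the 10 genes, values between states are also given without G7 and Co2.

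The promoter windows of the genes were read from RefSeq (GRCm38.p6) as the 250 bases before the annotated start. Windows were held for 7 of the 10 genes, all but Id1, Smad7 and Skil. Those of Smad6 and Tgfb2 belong to transcript starts inside the gene and are not described, and those of Id2 and Id3 overlap exons annotated by GENCODE. Searched on both strands were CAGAC, a short element bound by Smad3 and Smad4, GGCGCC, a GC-rich element bound by Smads, and CANNTG, the E-box bound by helix-loop-helix factors. CAGAC occurred in 42.2% of all 32851 windows, GGCGCC in 9.59% and CANNTG in 66.2%. Tgfb1, the ligand gene that differed most clearly between states, contained none of the 3, and Id4, which was high in the clones low in Cdh1, contained GGCGCC once, 148 bases before its start. Both windows are printed to show a ligand and a target gene side by side, with GGCGCC in capitals.

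Tgfb1 chr7:25686752-25687001, plus strand: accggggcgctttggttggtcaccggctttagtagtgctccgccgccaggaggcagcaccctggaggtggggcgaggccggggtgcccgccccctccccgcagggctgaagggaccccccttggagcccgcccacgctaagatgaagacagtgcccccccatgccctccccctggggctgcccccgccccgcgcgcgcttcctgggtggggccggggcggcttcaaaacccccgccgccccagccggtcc
Id4 chr13:48260866-48261115, plus strand: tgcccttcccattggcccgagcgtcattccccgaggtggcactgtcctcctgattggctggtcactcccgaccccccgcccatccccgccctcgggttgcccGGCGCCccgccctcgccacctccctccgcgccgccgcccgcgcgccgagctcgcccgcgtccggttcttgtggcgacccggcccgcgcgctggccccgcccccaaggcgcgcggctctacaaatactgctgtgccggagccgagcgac

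Both windows were rich in G and C, 75.2% for Tgfb1 and 75.6% for Id4, against a median of 52.4% over all windows. Id3 had 2 matches to CAGAC, and the 25 bases around each match are shown with the element in capitals (GTCTG where it lies on the reverse strand).

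Id3 chr4:136143645-136143669, 167 bases before the start: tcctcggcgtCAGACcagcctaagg
Id3 chr4:136143744-136143768, 68 bases before the start: acccttggcgGTCTGttttgaataa

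Id2 had 1 GGCGCC and 1 CANNTG, and Bmp4 had 3 CANNTG. These matches describe letters in the windows and do not show binding.

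Per kilobase of merged exons (CPM per kb), Id2 had the highest mean level in each of the 4 groups, and Tgfb2 and Id4 the lowest. In ciliated controls Id2 stood at 77.2 ± 25.2 CPM per kb (SD over 4 clones), above Tgfb1 at 21.1 ± 5.45 and Id1 at 19.6 ± 9.89. Skil, Smad7 and Id3 followed at 15.3, 14.8 and 14.4 CPM per kb, then Smad6 at 6.56 and Bmp4 at 3.64. From Tgfb1 to Smad6, neighbours in this order differed by less than the larger of their SDs. In non-ciliated controls the order began with Id2 (114 ± 47.3 CPM per kb), Id1 (78.6 ± 47.8) and Id3 (44.5 ± 42.4), whose spreads overlapped, and Tgfb1 had moved to the seventh place with 7.23 ± 1.1. Exons of Id4, Bmp4 and Tgfb2 overlap annotated genes on the opposite strand by at most 108, 89 and 80 bases, and the strand setting of the counting is not given in the sources used here, so that some of their reads may belong to these neighbours.

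**Figure D1:**
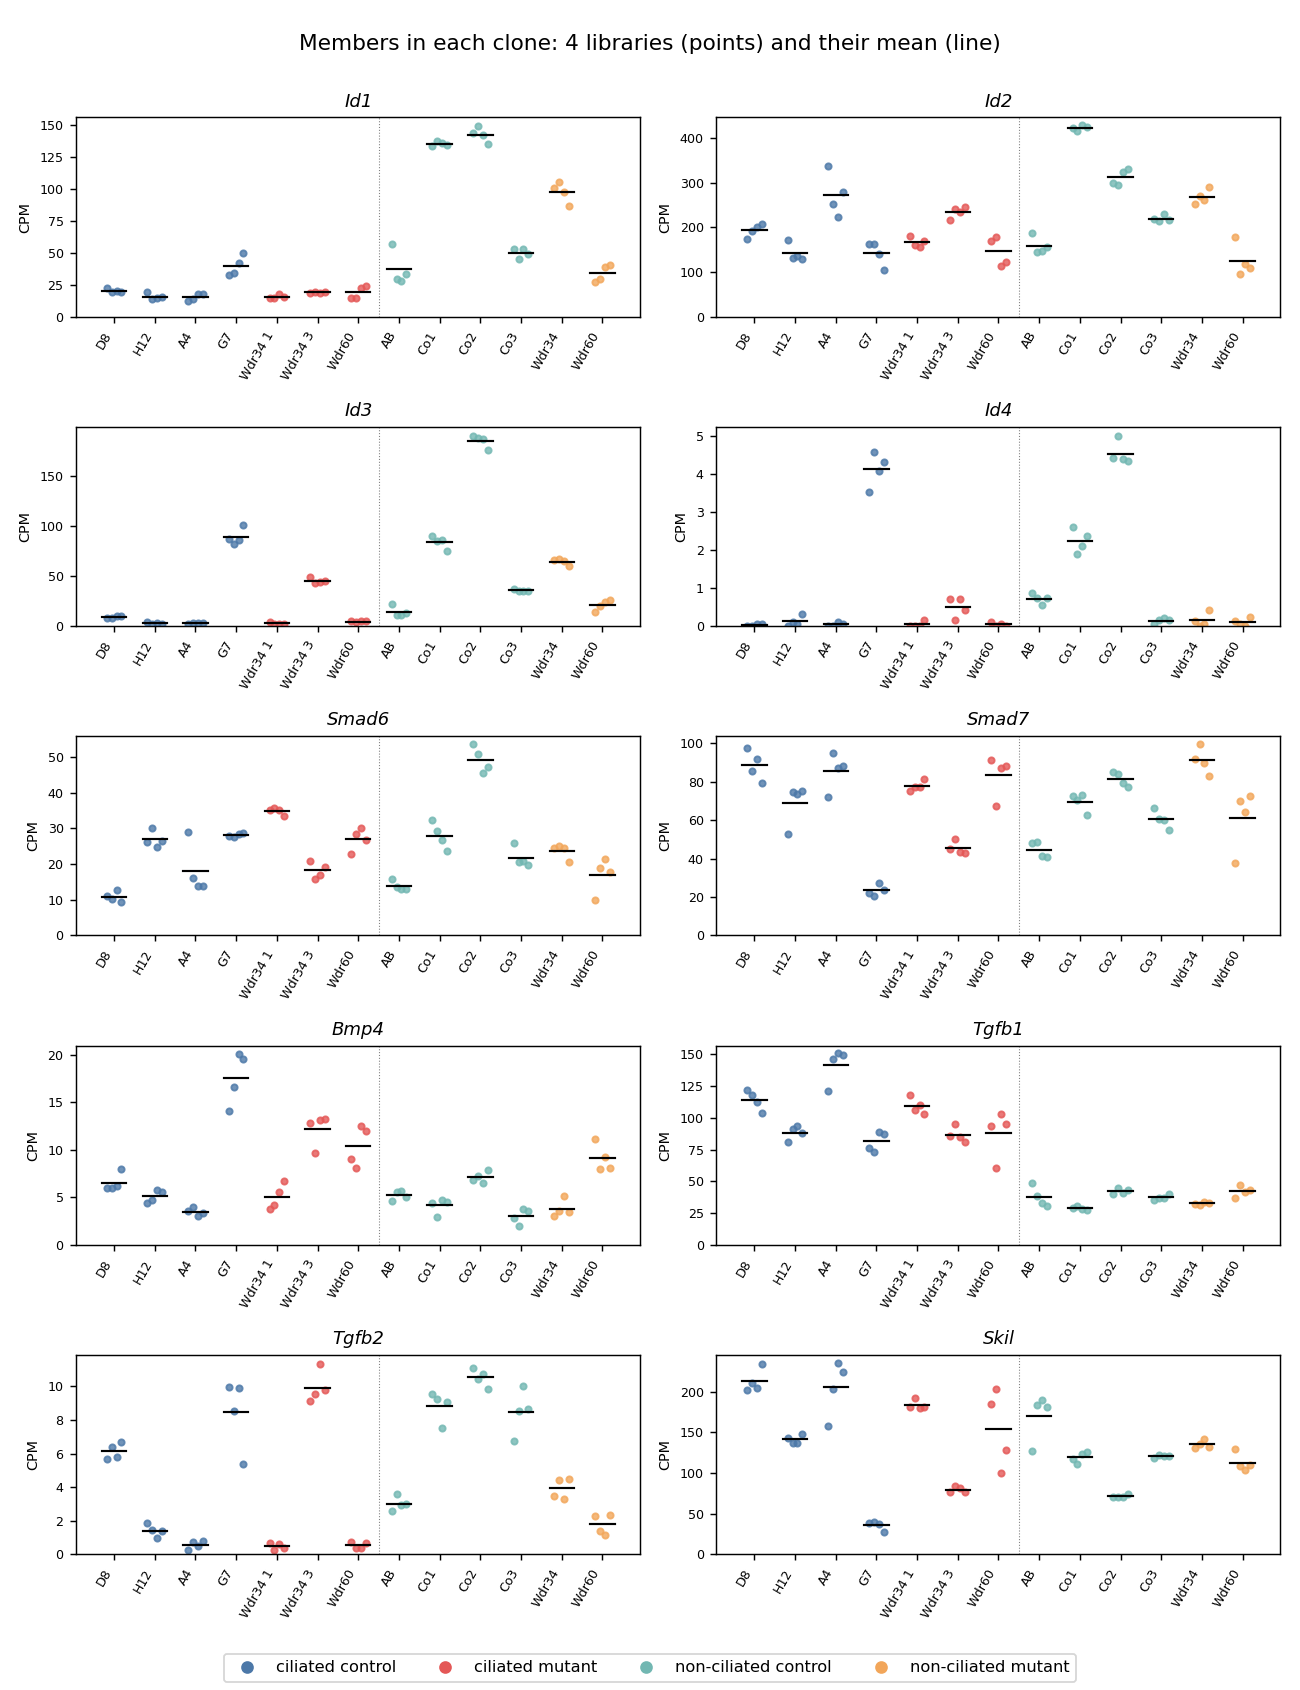
Level of each of the 10 genes (CPM, linear axis) in each of the 13 clones, coloured by group, with points for the 4 libraries of a clone, a line for their mean and ciliated clones left of the dotted line. Tgfb1 is higher in all 7 ciliated clones, and G7 and Co2 have the highest Id3 and Id4 of their states.

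The ID genes were compared first between the states, in control clones alone. Clone means of Id1 (chr2:152736251-152737410) were 20.3, 15.7, 15.5 and 39.7 CPM in ciliated controls D8, H12, A4 and G7. They were 37.0, 135, 142 and 49.96 CPM in non-ciliated controls AB, Co1, Co2 and Co3. Ciliated controls were lower in all but 1 pairing of clones, since G7 stood just above AB. Id1 fell 4.0-fold from 91.2 ± 55.4 to 22.8 ± 11.5 CPM in ciliated controls (log2 fold change -1.99, SE 0.51, adjusted p = 0.0206, edgeR's quasi-likelihood test with Benjamini-Hochberg adjustment, 4 against 4 clones). Of all genes tested, 18.4% passed the same test in this comparison. Without Co1, H12 or A4 the adjusted p of Id1 was 0.0681, 0.0589 and 0.0551, and without both G7 and Co2 it was 0.0172 at a log2 fold change of -2.14.

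Among 8 cycling markers, which were examined because ID proteins are known in proliferating cells, Ccnb1 and Top2a were lower in ciliated controls, by -0.36 and -0.44 on the log2 scale, and 0 were higher at this threshold. Pcna went the other way, with 260 to 351 CPM in ciliated and 183 to 251 CPM in non-ciliated controls (0.61, adjusted p = 0.0612, edgeR), and the median of the 8 was -0.06. The summed level of the 8 was 2507 to 3529 CPM over the 13 clones and was highest in G7. Their part in the difference of Id1 was not tested.

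Id3 (chr4:136143822-136145392) varied more between clones of a group than between groups. Its clone means were 8.94, 2.59, 2.56 and 89.1 CPM in ciliated controls D8, H12, A4 and G7. In non-ciliated controls AB, Co1, Co2 and Co3 they were 14.3, 83.9, 185 and 35.6 CPM. G7 was thus 19.0-fold above the mean of the other ciliated controls, and Co2 4.14-fold above the mean of the other non-ciliated controls. With all clones the state difference of Id3 did not pass the test (log2 fold change -1.63, SE 1.27, adjusted p = 0.396). Without G7 it did (-4.09, adjusted p = 0.0453), and without both G7 and Co2 the adjusted p was 0.0674 at -3.27. Without Co2 alone the log2 fold change was -0.80. With voomLmFit, in which libraries entered with their clone as a random block, Id3 passed at -2.49 (adjusted p = 0.00346).

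Id4 (chr13:48261116-48266028) was near the limit of detection in most clones. Summed over the 4 libraries of a clone, it had 2, 9, 3 and 322 counts in ciliated controls D8, H12, A4 and G7, that is 0.0308, 0.120, 0.0406 and 4.13 CPM. In non-ciliated controls AB, Co1, Co2 and Co3 it had 53, 154, 331 and 11 counts, that is 0.723, 2.24, 4.55 and 0.143 CPM. The highest clone of each state was the one low in Cdh1, while Co1 and AB, with Cdh1 at 251 and 391 CPM, had more Id4 than the remaining clones. Id4 did not differ between the states at this threshold with all clones (log2 fold change -0.85, SE 1.46, adjusted p = 0.72) and passed the test without G7 (-4.88, adjusted p = 0.0327) and without both G7 and Co2 (-4.01, adjusted p = 0.0463). Without Co2 alone it was 0.03. The sizes of these fitted changes rest on a few counts in the ciliated clones.

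Id2 (chr12:25093799-25096092), the most abundant member, was the steadiest of the ID genes. Ciliated controls D8, H12, A4 and G7 had 194, 142, 273 and 143 CPM, and non-ciliated controls AB, Co1, Co2 and Co3 had 159, 424, 313 and 220 CPM. The groups overlapped, and the difference did not pass the test (log2 fold change -0.59, SE 0.35, adjusted p = 0.264), and it was -0.42 without both G7 and Co2. Unlike Id1, Id3 and Id4, Id2 was not highest in either of the clones low in Cdh1, with G7 sixth of 7 ciliated clones and Co2 second of 6 non-ciliated clones.

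The ligand gene Tgfb1 (chr7:25687002-25705077), which encodes the TGF-beta isoform best known from fibrosis, showed the clearest difference between states. Its clone means were 114, 88.3, 142 and 81.4 CPM in ciliated controls D8, H12, A4 and G7. They were 37.7, 28.8, 42.1 and 37.3 CPM in non-ciliated controls AB, Co1, Co2 and Co3. Every ciliated control clone was above every non-ciliated control clone, and Tgfb1 was the 1 member of the set for which these groups did not overlap, as held for 21.3% of all genes tested. Tgfb1 rose 2.92-fold from 36.5 ± 5.56 to 106 ± 27.5 CPM in ciliated controls (log2 fold change 1.54, SE 0.19, adjusted p = 0.00143, edgeR). It passed under every alternative run, with log2 fold changes of 1.36 to 1.71, the highest being that without both G7 and Co2 (adjusted p = 0.00162, edgeR). The mutant clones were not in the groups compared, though they entered the same fit. In ciliated cells they were at 109, 86.6 and 88.0 CPM (Wdr34 clones 1 and 3, Wdr60). In non-ciliated cells they were at 32.7 and 42.2 CPM (Wdr34, Wdr60), again without overlap. Over all 13 clones, 15% of genes tested had ciliated and non-ciliated clone means that did not overlap. As these are bulk samples, fewer cells with a transcript and less of it per cell cannot be told apart.

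Tgfb2 (chr1:186622787-186709697) was low and uneven. Clone means were 6.13, 1.41, 0.564 and 8.46 CPM in ciliated controls D8, H12, A4 and G7 and 3.02, 8.85, 10.5 and 8.47 CPM in non-ciliated controls AB, Co1, Co2 and Co3. The range over all 13 clones was 22.0-fold, and the groups overlapped (log2 fold change -0.96, SE 0.998, adjusted p = 0.529, edgeR). It was -1.53 without G7, -0.79 without Co2 and -1.36 without both, where the adjusted p was 0.441. With voomLmFit Tgfb2 passed at -1.66 (adjusted p = 0.0128).

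Bmp4 (chr14:46383525-46390669), a BMP ligand of kidney development, had 6.54, 5.11, 3.46 and 17.6 CPM in ciliated controls D8, H12, A4 and G7. Non-ciliated controls AB, Co1, Co2 and Co3 had 5.23, 4.16, 7.11 and 3.02 CPM. The highest value was that of G7, 3.49-fold above the mean of the other ciliated controls, and the groups overlapped (log2 fold change 0.73, SE 0.51, adjusted p = 0.34). The log2 fold change was 0.02 without G7 (adjusted p = 0.976), 0.96 without Co2 and 0.25 without both (edgeR).

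The feedback genes showed no difference between states that passed the test. Smad6 (chr9:63953076-64022085), an inhibitor mainly of BMP receptor signalling, had 10.8, 26.9, 18.2 and 28.2 CPM in ciliated controls D8, H12, A4 and G7 and 13.9, 28.0, 49.3 and 21.7 CPM in non-ciliated controls AB, Co1, Co2 and Co3. Smad7 (chr18:75367365-75395935), which blocks both TGF-beta and BMP receptors, had 88.6, 69.1, 85.7 and 23.4 CPM and 44.6, 69.7, 81.4 and 60.5 CPM in the same order. The state differences were -0.43 (SE 0.39, adjusted p = 0.472) for Smad6 and 0.05 (SE 0.37, adjusted p = 0.933) for Smad7 on the log2 scale. That of Smad6 was -0.02 without Co2 (adjusted p = 0.973, edgeR), -0.60 without G7 and -0.20 without both. That of Smad7 was 0.33 without G7, 0.18 without Co2 and 0.46 without both (adjusted p = 0.235, edgeR). G7 was the lowest of all 13 clones for Smad7, at 0.289 times the mean of the other ciliated controls.

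Skil (chr3:31095058-31122923) encodes a nuclear repressor of Smad complexes and is itself a TGF-beta target. It had 212, 141, 205 and 35.5 CPM in ciliated controls D8, H12, A4 and G7 and 170, 119, 71.4 and 120 CPM in non-ciliated controls AB, Co1, Co2 and Co3. G7 and Co2 were the lowest clones of their states, at 0.191 and 0.523 times the mean of the other controls. The groups overlapped (log2 fold change 0.29, SE 0.47, adjusted p = 0.704). The log2 fold change was 0.61 without G7 (adjusted p = 0.204), 0.10 without Co2 and 0.42 without both (edgeR).

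Of the 10 genes, 2 passed the test between states, Tgfb1 higher and Id1 lower in ciliated controls, and the same 2 passed with DESeq2, which called 26.3% of all genes. voomLmFit called 4 of them, Tgfb1 higher and Id1, Id3 and Tgfb2 lower, and 27% of all genes. Without both G7 and Co2, 3 passed (Id1, Id4 and Tgfb1), as did 20.8% of all genes. Over all 13994 genes tested, 2580 passed (1256 higher, 1324 lower). The median log2 fold change was -0.51 over the 10 genes and 0.02 over all genes tested. The median of the 10 rested on 1 clone, being 0.00 without Co2, -0.54 without G7 and -0.31 without both. With the 4 libraries of a clone entered as separate samples, 6 of the 10 passed (Bmp4, Id1, Id2, Id3, Smad6 and Tgfb1), where 61.9% of all genes did.

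**Figure D2:**
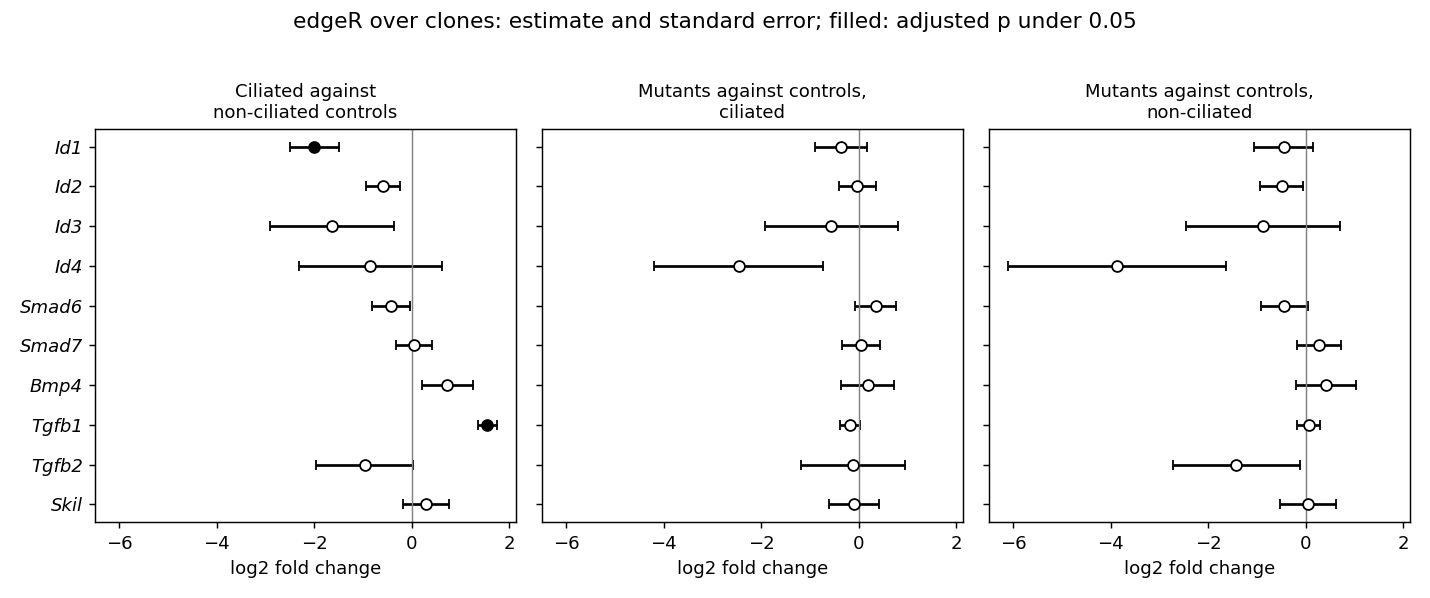
Log2 fold changes (points, filled where the adjusted p is under 0.05) with SE (bars) of the 10 genes in 3 comparisons: ciliated against non-ciliated controls, and mutants against controls in each state (edgeR, clone sums). Tgfb1 at 1.54 and Id1 at -1.99 are the values that passed the test, and the bars of Id3, Id4 and Tgfb2 are the widest.

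Mutant clones were next compared with the controls of their state. In ciliated cells Id1 was at 15.7, 19.0 and 19.0 CPM in Wdr34 clone 1, Wdr34 clone 3 and Wdr60, within the range of the controls. Id2 was at 166, 235 and 146 CPM and Tgfb1 at the levels given above, likewise within the range of the controls. None of the 10 genes separated the 3 mutants from the 4 controls, and 2.14% of all genes tested did.

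Id3 and Tgfb2 differed among the ciliated mutant clones themselves. Id3 was at 45.1 CPM in Wdr34 clone 3 but at 2.59 CPM in Wdr34 clone 1 and 4.49 CPM in Wdr60. Tgfb2 was at 9.93 CPM in Wdr34 clone 3, the highest ciliated clone, and at 0.478 and 0.548 CPM in Wdr34 clone 1 and Wdr60. In both genes the Wdr34 clones were further apart than Wdr34 clone 1 and Wdr60. The Wdr34 clones share a mutated gene but, by the study, carry different alleles.

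The remaining ciliated mutant levels were also taken in the order Wdr34 clone 1, Wdr34 clone 3, Wdr60. Id4 had 3, 37 and 3 counts over 4 libraries, and Bmp4 was at 5.05, 12.2 and 10.4 CPM. Smad6 was at 34.9, 18.3 and 27.1 CPM, the first being above each control, Smad7 at 77.9, 45.5 and 83.7 CPM and Skil at 184, 79.5 and 154 CPM. Wdr34 clone 3 thus had the highest Id4 and Bmp4 and the lowest Smad6, Smad7 and Skil of the ciliated mutants.

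In the test of the 3 ciliated mutants against the 4 controls, 0 of the 10 genes passed, and 0% of the 13994 genes tested did (edgeR). At an unadjusted p under 0.05 there were 272 genes and 0 of the 10, while DESeq2 called 3 genes and voomLmFit called 9, in neither case one of the 10. Log2 fold changes ran from -2.46 (SE 1.73) for Id4 to 0.35 (SE 0.42) for Smad6, and the smallest SE was 0.20 for Tgfb1 (-0.17). The median was -0.11 over the 10 genes and 0.00 over all genes tested, and that of the 10 was 0.25 without G7. Leaving out G7 turned the differences of Id3 and Id4 from -0.56 and -2.46 to 1.89 and 1.56, those of Id1 and Tgfb2 from -0.36 and -0.12 to 0.07 and 0.44, and that of Smad7 from 0.05 to -0.23. For Id1, Id3 and Id4 no other clone left out singly turned the direction, whereas those of Smad7 and Tgfb2 also turned without Wdr34 clone 1 or Wdr60, and that of Tgfb2 without D8. Bmp4 moved from 0.18 to 0.88 without G7. With libraries as samples 6.57% of all genes passed, and again 0 of the 10.

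In non-ciliated cells the mutant clones Wdr34 and Wdr60 had 97.5 and 33.9 CPM of Id1, 269 and 126 CPM of Id2 and 64.3 and 21.2 CPM of Id3. Wdr60 was below each of the 4 controls for Id1 and Id2, whereas Wdr34 lay within their range for Id1, Id2 and Id3. Id4 had 10 and 7 counts over 4 libraries in Wdr34 and Wdr60, against 11 in Co3 and 53 to 331 in the other controls.

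The other levels in non-ciliated Wdr34 and Wdr60 were 23.7 and 17.1 CPM for Smad6, 91.2 and 61.2 CPM for Smad7, the first being above each control, and 135 and 113 CPM for Skil. Bmp4 was at 3.78 and 9.12 CPM, the second being above each control, and Tgfb2 at 3.92 and 1.78 CPM, the second being below each control. Tgfb1 in Wdr60, at 42.2 CPM, was level with the highest control at 42.1 CPM. For each of the 10 genes the clone means of mutants and controls overlapped, whereas 13.1% of all genes tested were without overlap.

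Again 0 of the 10 genes passed the test of the 2 non-ciliated mutants against the 4 controls, where 0% of all genes did (edgeR). At an unadjusted p under 0.05 there were 516 genes and 0 of the 10, DESeq2 called 24 genes and voomLmFit 7, and neither called one of the 10. Log2 fold changes were largest for Id4 (-3.87, SE 2.23) and Tgfb2 (-1.42, SE 1.30), and that of Tgfb1 was 0.06 (SE 0.23). The median was -0.45 over the 10 genes and 0.00 over all. Without Co2 that of the 10 was -0.09, with Id3 moving from -0.87 to -0.05, Smad6 from -0.44 to -0.03 and Id1 from -0.45 to -0.16. With libraries as samples 10.5% of all genes and 1 of the 10, Id4, passed (adjusted p = 0.02). The 4 libraries of a clone are technical replicates, and that fit counts them as independent samples.

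Single genotypes gave the same count of 0 of the 10 genes. In ciliated cells 0% of 14567 genes passed for Wdr34 and 0.0137% for Wdr60, and in non-ciliated cells 0% for Wdr34 and 0.0137% for Wdr60 (edgeR). At an unadjusted p under 0.05 these comparisons held 399, 333, 305 and 412 genes and 0 of the 10. DESeq2 called 7, 32, 12 and 35 genes and voomLmFit 23, 33, 0 and 13 genes, none of them among the 10. Lowest in unadjusted p among the 10 was Id2 in non-ciliated Wdr60 (log2 fold change -1.15, SE 0.57, adjusted p = 1), followed by Id1 in the same clone (-1.42, SE 0.84, adjusted p = 1, both edgeR). With libraries as samples 12% and 11.5% of all genes passed for ciliated Wdr34 and Wdr60 and 8.81% and 11.5% for non-ciliated Wdr34 and Wdr60. Among the 10, these were Tgfb2 (lower) in ciliated Wdr60 and Id1 and Id2 (lower) in non-ciliated Wdr60.

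Whether mutants differed from controls more in either state was tested as an interaction in the same fit. It passed for 0 of the 10 genes and for 0% of all genes (edgeR), with 136 genes and 0 of the 10 at an unadjusted p under 0.05 and 0 genes by DESeq2 or voomLmFit. The values of the 10 ranged from -0.23 (SE 0.31) for Tgfb1 and -0.23 (SE 0.60) for Smad7 to 1.41 (SE 2.50) for Id4. Without G7 the interaction was 5.44 for Id4 and 2.77 for Id3, which was 0.31 with all clones. Without Co2 it was 0.54 for Id4 and -0.52 for Id3. With libraries as samples 1.89% of all genes passed and 0 of the 10. A mutant effect specific to either state was therefore not detected for these genes, at standard errors of 0.31 for Tgfb1 up to 2.50 for Id4.

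Id3, Id4 and Tgfb2 had the largest spread between clones of a state among the 10 genes. Within ciliated clones, the SD of log2 CPM, with 0.1 added to each CPM, placed Id3, Id4 and Tgfb2 at percentiles 98.3, 97.2 and 97.3 of all genes tested. For Id4 in these clones the SD was 1.86 with this addition and 2.62 without it. Within non-ciliated clones the percentiles were 95.7, 98.2 and 92.7. Id1 was close behind in non-ciliated clones at percentile 91.8 (68.6 in ciliated clones), and Skil in ciliated clones at 89.3 (68.9 in non-ciliated clones). Tgfb1 was at percentiles 42.9 and 34.5, near the middle of all genes. From the lowest to the highest of the 13 clones, the range was 72.4-fold for Id3, 9.17-fold for Id1 and 4.93-fold for Tgfb1.

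The clones low in Cdh1 were first or last of their state for several members. How many of all genes had these clones in such places was not counted, so the places are not known to be particular to the set. G7 was first of 7 ciliated clones for Id1, Id3, Id4 and Bmp4 and last for Smad7, Tgfb1 and Skil. Co2 was first of 6 non-ciliated clones for Id1, Id3, Id4, Smad6 and Tgfb2 and last for Skil. Wdr34 clone 3, second lowest of the ciliated clones in Cdh1, was second for Id2, Id3, Id4 and Bmp4 and first for Tgfb2. The part of epithelial state in these levels was not tested. G7 and Co2 also had the highest Pax8 of their states, 427 and 303 CPM, while their summed fibroblast markers were 0.395 and 6.03 CPM.

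**Figure D3:**
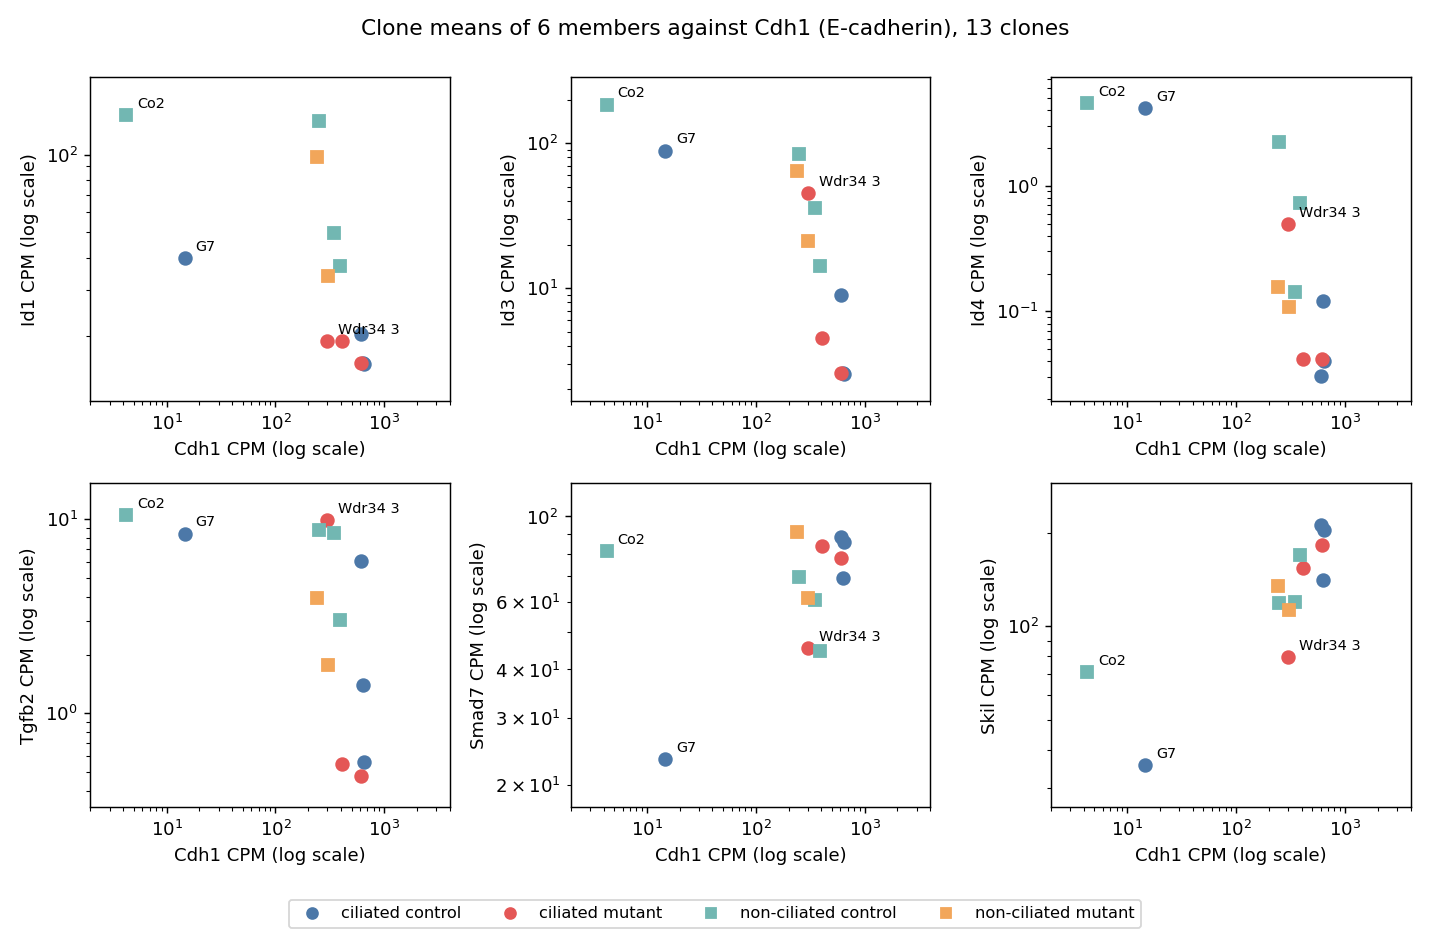
Clone means of Id1, Id3, Id4, Tgfb2, Smad7 and Skil against Cdh1, each in CPM on a log scale, with 1 point for each of 13 clones coloured by group. G7 (Cdh1 14.7 CPM) and Co2 (4.27 CPM) lie far to the left, with high Id3 and Id4 and low Skil.

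Genes whose clone pattern was most like that of Id1 were ranked by the lower of 2 Pearson correlations of log2 CPM, over 7 ciliated and over 6 non-ciliated clones. Nearest were Atp1b3 (r = 0.96 and 0.94), a sodium pump subunit, Alg1 (0.93 and 0.94), a mannosyltransferase, Zfp706 (0.94 and 0.91), Rrm2 (0.89 and 0.91), a ribonucleotide reductase subunit, and Polq (0.90 and 0.89), a DNA polymerase. Within the set, Id3 was closest (0.84 and 0.95), followed by Id4 (0.88 and 0.69) and Tgfb2 (0.64 and 0.74). The lower of the pair stood at percentiles 99.8, 97.9 and 96.7 of all genes for these 3. Both values were negative for Skil (-0.85 and -0.56, percentile 7.3 for the lower) and for Tgfb1 (-0.52 and -0.47), whose lower value, at percentile 33.8, was an ordinary one among all genes. Id2 followed Id1 in non-ciliated clones alone (-0.37 and 0.94), as did Smad6 (0.06 and 0.87) and Smad7 (-0.85 and 0.77), and Bmp4 in ciliated clones alone (0.81 and -0.19). These values are descriptions over few clones, and in ciliated clones they lean on G7.

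The other genes of the pathway were taken from a list of 69, of which 58 were tested. Between states, 5 were higher and 4 lower in ciliated controls (edgeR, adjusted p under 0.05), beside the 18.4% of all genes that passed. The median log2 fold change was 0.08 over the 58 and 0.02 over all genes. Without both G7 and Co2, 9 of 57 were higher and 7 lower, where 20.8% of all genes passed. DESeq2 called 10 of 57 higher and 8 lower, and 26.3% of all genes. voomLmFit called 13 of 52 higher and 11 lower, and 27% of all genes. With libraries as samples, 21 of 52 were higher and 12 lower, and 61.9% of all genes passed.

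Of 16 tested genes listed as antagonists and inhibitors, a list that also held genes of latent TGF-beta binding proteins, 3 were higher and 3 lower. Fst, which encodes the activin-binding follistatin, was at 66.4 to 335 CPM in the non-ciliated control clones and at 3.61 to 29.3 CPM in the ciliated ones (log2 fold change -3.74, SE 0.76, adjusted p = 0.0081, edgeR). Nog, which encodes the BMP antagonist noggin, was at 0.503 to 2.48 CPM in non-ciliated and at most 0.228 CPM in ciliated controls (-3.65, SE 1.04, adjusted p = 0.0324), which in ciliated cells is near the limit of 3 counts. Ltbp1, which encodes a protein that binds latent TGF-beta, was at 52.4 to 79.6 CPM in non-ciliated and 7.70 to 34.1 CPM in ciliated controls (-1.46, SE 0.38, adjusted p = 0.022).

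Ltbp3, Ski and Fstl3 were the genes of this list that rose. Fstl3, which encodes a follistatin-like activin antagonist, was at most 0.146 CPM in non-ciliated controls and 0.170 to 0.533 CPM in ciliated controls (1.81, SE 0.57, adjusted p = 0.0465), a difference of few counts, which passed in 6 of 22 alternatives and had an adjusted p of 0.114 without G7 and Co2. Ltbp3, which like Ltbp1 binds latent TGF-beta, rose by 0.99 and Ski, the relative of Skil, by 0.65 on the log2 scale. The adjusted p of Nog exceeded the threshold without Co1, Co3, H12 or A4, and that of Ltbp1 without Co1 or A4, the highest being 0.0847 and 0.0725.

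Among 11 tested receptors, Acvr1b was higher and Eng lower. Acvr1b, a type I receptor of activins, was at 55.4 to 72.1 CPM in ciliated and 24.0 to 38.7 CPM in non-ciliated controls (1.01, SE 0.18, adjusted p = 0.00521, edgeR). Eng, which encodes the co-receptor endoglin, was at 0.311 to 0.594 CPM against 1.52 to 1.71 CPM (-1.78, SE 0.32, adjusted p = 0.00516). Fst, Eng and Acvr1b passed in each of the 26 alternatives run for them. Without both G7 and Co2 the log2 fold changes were -3.60 for Fst, -3.52 for Nog, -1.25 for Ltbp1, -1.75 for Eng and 1.14 for Acvr1b, with adjusted p of 0.0166, 0.0251, 0.0128, 0.0149 and 0.0058 (edgeR).

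Of the other targets, 1 of 13 was higher, Cdkn2b (0.77), a cell cycle inhibitor induced by TGF-beta. None of 9 tested ligands, 6 receptor or common Smads and 3 helix-loop-helix partners of ID proteins passed, with medians of 0.34, 0.23 and 0.03.

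**Figure D4:**
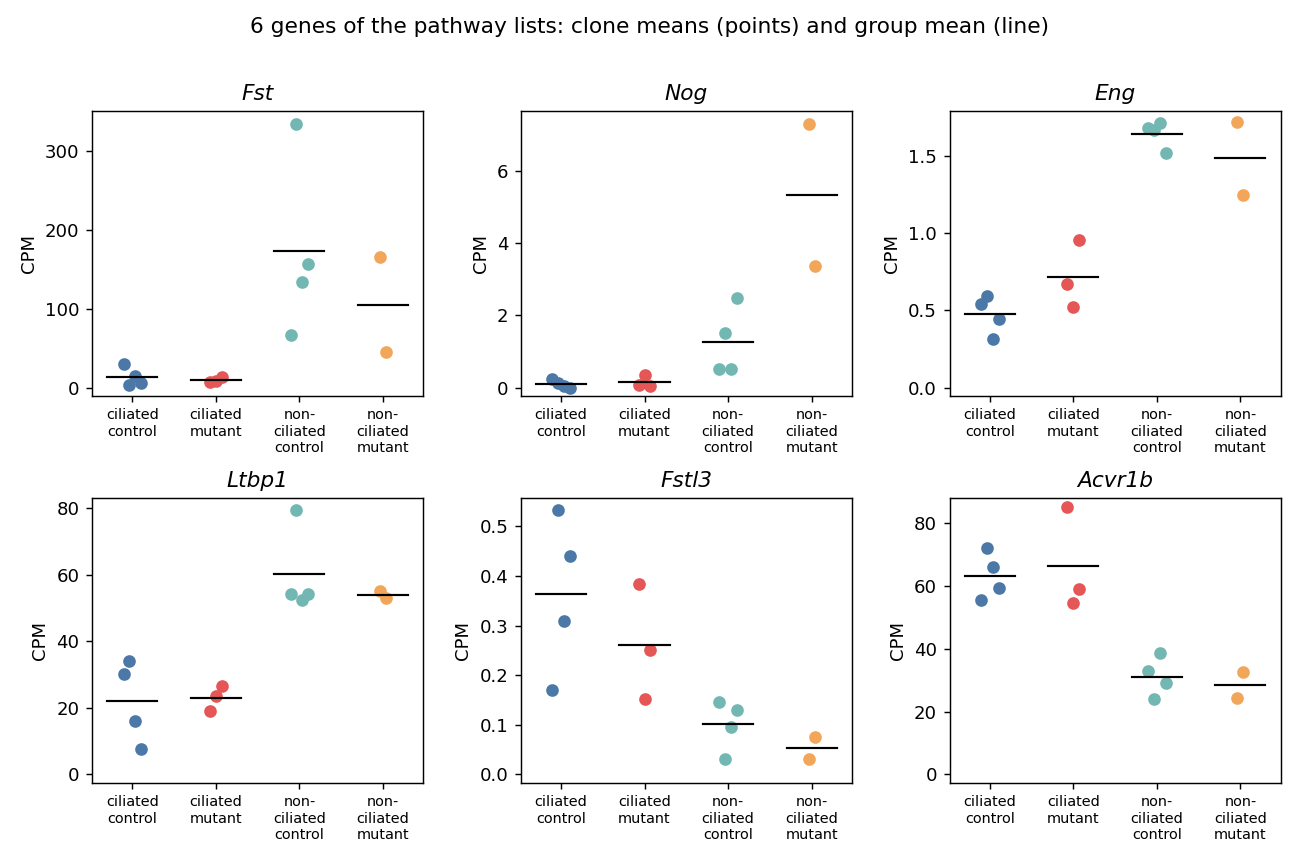
Levels (CPM) of 6 pathway genes in 13 clones, with points for clone means and a line for the group mean. Fst, Nog, Eng and Ltbp1 are higher in the non-ciliated clones and Fstl3 and Acvr1b in the ciliated clones. For each of the 6 genes, shown because they passed between control clones, the 7 ciliated and 6 non-ciliated clones do not overlap. The same held for 9 of all 58 pathway genes tested and for 15% of all genes tested.

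Between mutants and controls, 0 of the 58 pathway genes passed in either state or in the interaction (edgeR). When libraries were entered as samples, 4 of 52 passed in ciliated mutants (Acvr2b, Gdf15, Hey1 and Tgfb3), 6 in non-ciliated mutants (Bmp3, Bmp6, Ltbp3, Nog, Smad3 and Tgfb3) and 3 in the interaction (Bmp3, Bmper and Hey1), beside 6.57%, 10.5% and 1.89% of all genes. The lowest unadjusted p in ciliated cells was that of Tgfb3, the third TGF-beta ligand gene, which was at 38.2, 36.6 and 54.1 CPM in Wdr34 clone 1, Wdr34 clone 3 and Wdr60 and at 13.6 to 29.8 CPM in the controls (log2 fold change 0.90, SE 0.35, adjusted p = 1). Each ciliated mutant was above each control for Tgfb3 and Hey1, 2 of the 58 genes, where 2.14% of all genes were without overlap in either direction. For Hey1 this was a difference of few counts. Its lowest mutant, Wdr34 clone 1, was at 0.605 CPM (41 counts over 4 libraries) and its highest control, D8, at 0.592 CPM (37 counts). In non-ciliated cells Tgfb3 was at 16.8 CPM in Wdr34 and 37.1 CPM in Wdr60 against 9.75 to 22.5 CPM in controls (0.87, SE 0.39, adjusted p = 1, edgeR). voomLmFit called it and no other pathway gene for Wdr60, a single clone by label, in both states. By contrast, edgeR and DESeq2 called none of the pathway genes for Wdr60.

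Next in ciliated cells were Hey1, a transcription factor gene (1.17, SE 0.64), and Eng (0.59, SE 0.34), each with an adjusted p of 1 (edgeR). In non-ciliated cells Bmp3, a BMP ligand gene, was at 0.867 and 1.44 CPM in Wdr34 and Wdr60 and at 1.12, 7.39, 40.4 and 6.34 CPM in controls AB, Co1, Co2 and Co3 (-3.55, SE 1.30, adjusted p = 1). Bmp3 was also highest in the clone low in Cdh1 among the ciliated clones, with 37.9 CPM in G7. Smad3, a receptor Smad gene, was at 168 and 117 CPM against 156 to 238 CPM (-0.56, SE 0.26, adjusted p = 1). For the interaction the lowest unadjusted p belonged to Chrd, Bmp3 and Hey1, each with an adjusted p of 1. Chrd, which encodes the BMP antagonist chordin, had 0 counts in both non-ciliated mutants and at most 19 counts over 4 libraries in any clone, so that no fold is given.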

How the data were processed

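The data comprised 52 RNA libraries from 13 clone samples of the line, each a clone in 1 state by its label, and clones may be shared between the states. According to the study's methods and the submitters' processing notes, the authors aligned reads to GRCm38/mm10 in R 3.4.4, assigned them to genes with featureCounts and tested them with DESeq2 1.18.1. The deposited values are raw counts per gene symbol, without normalization. The strand setting of the counting is not given in the sources used here, nor is what was done with multi-mapping reads. Clones and groups were taken from the sample labels. The study's methods call the 4 libraries of a clone technical replicates, so the clone was the unit of each test.

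Counts were summed over the 4 libraries of a clone and analysed in R 4.3.3 with edgeR 4.0.16 (filterByExpr at its defaults, TMM, estimateDisp, glmQLFit and glmQLFTest, 2-sided). The 13 clones entered 1 fit of 4 groups (13994 genes tested) and, for single genotypes, 1 fit of 6 groups (14567 genes tested). A genotype with 1 clone was assumed to vary like the other groups. P-values were adjusted by the Benjamini-Hochberg method over all genes tested, and a gene was called at an adjusted p under 0.05. Standard errors (SE) were taken as the absolute log2 fold change over the root of its F statistic. Nothing in the labels says that the clones of a group came from separate experiments, so that p-values measure the spread between these clones. The fits were tested on simulated data, for which no values are given here.

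Levels are CPM with TMM scaling over the 52 libraries, whose totals were 14816218 to 28084979 counts, and levels per kilobase use the merged exon length of GENCODE vM21. Named were the 10 genes of the set, per comparison up to 6 called genes of the pathway lists by size of change or, where 0 were called, up to 3 with the lowest unadjusted p, and the 5 genes most like Id1. Cdkn2b, Ltbp3 and Ski, also called, were named after their values were seen. The members of the set and the lists were chosen with earlier results of these data known.

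Alternatives were libraries as samples, with and without the replicate number as a block, voomLmFit (limma 3.58.1) with the clone as a block, DESeq2 1.42.0, RLE size factors, no filter, at least 10 counts in every clone, a log2 fold change of at least 1, each state by itself, leaving out each clone or replicate number, and, added after the data were seen, leaving out both control clones low in Cdh1. Of the 24421 symbols, 23204 (95%) matched a RefSeq gene of GRCm38.p6, the source of coordinates and promoter windows. Figures were drawn with matplotlib 3.10.9.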

Additional observations from a re-analysis of the deposited data

Results flagged for a closer look

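Among the 20 groups of 4 control clones examined (10 genes in each state), 2 had a clone whose distance from the nearest other clone was large against the range of the group. Both were G7, with Id3 at 89.1 CPM against 2.56 to 8.94 CPM in the other ciliated controls, and Id4 at 4.13 CPM against 0.0308 to 0.120 CPM. For 4 independent values of a normal distribution, chance alone would mark about 1 in 20 groups. These values are CPM on a linear scale and the genes are not independent, so that this rate may not hold here.

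Among the 130 groups of 4 libraries of 1 clone, 14 had a library that stood apart by the same measure. In ciliated cells, library 1 of H12 had the highest Id2 (173 CPM) and the lowest Smad7 (52.8 CPM), and library 1 of A4 had the highest Smad6 (29.0 CPM) and the lowest Tgfb1 (121 CPM). Library 4 of D8 had the highest Bmp4 (7.93 CPM), library 2 of Wdr34 clone 3 the lowest Bmp4 (9.70 CPM), and library 4 of Wdr34 clone 1 the 1 detectable Id4 level of that clone (0.167 CPM). In non-ciliated cells, library 1 had the lowest Skil in AB (127 CPM), the lowest Skil in Co3 (118 CPM) and the highest Id3 in Co3 (37.1 CPM). Library 2 had the highest Id4 in Co2 (5.0 CPM) and the lowest Bmp4 in Co1 (2.97 CPM), and library 4 had the highest Skil in Co2 (74.1 CPM) and the lowest Smad6 in Wdr34 (20.6 CPM). These are values within technical replicates, and their cause was not tested.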

How the results depend on the processing

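Tgfb1 passed the test between states in all alternatives run. Id1 lost its call without Co1 (-1.72), H12 (-1.85) or A4 (-1.85) and kept it in the others. With libraries as samples, 824 genes were called for ciliated mutants, 1314 for non-ciliated mutants, 7760 between states, 237 for the interaction, and 1557, 1491, 1141 and 1495 for ciliated Wdr34, ciliated Wdr60, non-ciliated Wdr34 and non-ciliated Wdr60. With a replicate block added, these counts were 651, 1141, 7625, 168, 1399, 1264, 955 and 1309. Members called were then 6 between states (5 with the replicate block), 1 for non-ciliated mutants, 1 for ciliated Wdr60 and 2 for non-ciliated Wdr60 with and without the replicate block. Same-numbered libraries of different clones of a state had a median r of 0.014 in their deviations (144 pairs, range -0.372 to 0.689, 29 above 0.1). A median over all pairs cannot tell whether the numbers pair samples of some clones. DESeq2 called 3, 24, 7, 32, 12 and 35 genes and voomLmFit 9, 7, 23, 33, 0 and 13 for ciliated mutants, non-ciliated mutants and the 4 genotypes, and voomLmFit 4 members between states. A log2 fold change of at least 1 left 871 genes between states. Leaving out each clone gave 1178 (without Co1) to 3063 genes (without Co2) and 1 to 4 members between states, with 1499 genes without Co3, 1698 without H12, 1 member without Co1, H12 or A4 and 4 without G7. It gave 0 to 1 genes for ciliated Wdr34 and 0 to 2 for Wdr60 in either state, where at least 10 counts in every clone gave 1 and leaving out G7 and Co2 gave 0 in each state.

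The sign of a member's difference turned in 41 of the values recomputed, none of them called. For ciliated mutants, leaving out each clone gave ranges of -0.51 to 0.0668 for Id1, -0.26 to 0.21 for Id2, -2.87 to 1.89 for Id3, -4.63 to 1.56 for Id4, -0.23 to 0.28 for Smad7, -0.0844 to 0.88 for Bmp4, -0.29 to 9e-04 for Tgfb1, -2.96 to 0.44 for Tgfb2 and -0.43 to 0.18 for Skil. Leaving out G7 and Co2 gave 0.0669 for Id1, 1.89 for Id3, 1.56 for Id4, -0.23 for Smad7 and 0.44 for Tgfb2, leaving out replicate 1 gave 0.0095 for Id2 and -0.0075 for Smad7, and voomLmFit gave 0.10 for Skil. For non-ciliated mutants the ranges were -1.42 to 0.12 for Id1, -0.0448 to 0.54 for Smad7, -0.36 to 0.91 for Bmp4, -0.13 to 0.23 for Tgfb1 and -0.14 to 0.26 for Skil, and Skil was -0.0231 without replicate 1 and -0.15 without G7 and Co2. Between states they were -4.88 to 0.0252 for Id4 and -0.12 to 0.33 for Smad7, and voomLmFit gave -0.10 for Smad7. The cause was not tested. Id4 has no value at 10 counts in every clone, and each state by itself gives no value between states and was not run for genotypes. With 4 or fewer clones a group, 1 clone can decide the direction of a difference, also of a large one such as that of Id4 in ciliated mutants. At 3 counts in a library, levels under 0.105 to 0.203 CPM, as for Id4 in most ciliated clones, are not told from 0.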
